A study of Mus musculus with 11 samples.

Results

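The SOCS family of cytokine feedback inhibitors was followed across 4 groups of mouse epiblast stem cell (EpiSC) cultures. Members were all probes of an Illumina mouse expression array whose gene symbol is Cish or Socs with a number. These were 7 of the 15718 probes in the table and covered 6 of 9201 genes: Socs3, Socs2, Cish, Socs4, which had 2 probes, Socs5 and Socs6. Socs1 and Socs7 were not analysed here.

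EpiSCs are pluripotent cells that resemble the epiblast after implantation. All 11 arrays were of EpiSCs of strain 129xMF1 in N2B27 medium with Activin and Fgf. One line carried the transgene GY118F, a hybrid of the G-CSF receptor, which supplies the ligand-binding region, and gp130, which supplies the signalling tail, with a phenylalanine in place of the gp130 tyrosine at which Shp2 and Socs3 dock. Its arrays fell into unstimulated GY118F EpiSCs (n = 3) and GY118F EpiSCs after 3 hours of G-CSF (n = 2). The control EpiSCs, for which no transgene is named, were likewise measured unstimulated (n = 3) and after 3 hours of G-CSF (n = 3). The labels do not say whether the GY118F cells were 1 clone, which promoter drove the receptor, or whether replicates were separate cultures. The p-values therefore reflect only how far these arrays scattered, and that scatter could be technical.

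SOCS proteins are induced by cytokines and shut down the pathway that induced them. Binding of a cytokine to its receptor activates JAK kinases, which phosphorylate the receptor and STAT transcription factors, and STATs then switch on SOCS genes. Each family member has an SH2 domain, which binds phosphotyrosine, and a SOCS box, which recruits elongins and a cullin ubiquitin ligase. Socs3 also blocks JAK activity directly and binds gp130. Cish and Socs2 are known for restraining STAT5 signalling from receptors such as that of growth hormone, whereas Socs4, Socs5 and Socs6 carry long amino-terminal extensions and have been linked to receptor tyrosine kinases.

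STAT dimers bind the palindrome TTCNNNGAA, which reads the same on both strands, and the promoters of the members that moved oppositely in the lines (below) are shown here because both hold it. RefSeq promoter windows of 300 bases (GRCm38.p6, from 250 bases before to 50 after the annotated start) were matched for 4 of the 8 family genes, namely Cish, Socs1, Socs3 and Socs4. The Socs3 promoter held 1 match, at positions -154 to -146 from the start, marked in capitals in the sequence of chr11:117969367-117969616 (minus strand).

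Socs3: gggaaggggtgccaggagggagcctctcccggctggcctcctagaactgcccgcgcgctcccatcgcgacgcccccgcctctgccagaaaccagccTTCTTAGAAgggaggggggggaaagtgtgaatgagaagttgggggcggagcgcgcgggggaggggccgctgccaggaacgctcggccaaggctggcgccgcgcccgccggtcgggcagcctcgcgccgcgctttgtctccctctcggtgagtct

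The Cish window held 2 matches, at positions 1 to 9 and 12 to 20 counted from the annotated start. They are in capitals in the 30 bases of chr9:107296654-107296683 (plus strand).

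Cish: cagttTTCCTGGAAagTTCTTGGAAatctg

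The windows of Socs1 and Socs4 held no match. Of all 32851 promoter windows in the RefSeq table, 8.30% held at least 1 match and 0.457% held 2 or more. A match is a description of the letters and not of a bound site. Cish and Socs3 were picked by their response in these data, and Socs2, Socs5 and Socs6 had no window. A link between match and response was not tested.

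Signals, given in log2 units, ran from 7.11 to 15.22 and their median was 8.16. Arrays of the same group correlated at r = 0.994 to 0.998 across 11208 features (genes, or probes without a single symbol), which are not independent replicates. All 8 EpiSC markers listed, among them Pou5f1, Sox2 and Fgf5, were measured, and their mean value per array was 10.21 to 10.99. Of 37 listed markers of naive pluripotent cells, fibroblasts, blood cells, endoderm and neural progenitors, 12 were measured. By the limma test below, 0 of these responded to G-CSF differently in the lines (1, Dcn, at an unadjusted p under 0.05). Over all features 3.85% were called in the direction of GY118F EpiSCs and 2.14% in the other, so 0 of 12 does not set these markers apart. Of the 8 EpiSC markers, Otx2 was called in that difference (0.39, limma adjusted p = 0.0318), and 3 were lower at an unadjusted limma p under 0.05. The number of arrays limits the precision.

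After G-CSF, 5 of the 6 members rose in GY118F EpiSCs and Socs6 did not pass the test, against 17.8% of all features called higher and 21.9% called lower (limma on all 11 arrays, Benjamini-Hochberg adjusted p under 0.05). In control EpiSCs 2 members rose, Socs2 and Socs4, and 2 fell, Socs3 and Cish, against 19.5% of features called higher and 22.6% called lower. None of the 4 groups was labelled as mock-treated. Within a line, an effect of G-CSF therefore cannot be told apart from handling that came with it, or from a batch of arrays. The median change of the 6 members was 0.58 on the log2 scale in GY118F EpiSCs and 0.06 in control EpiSCs, and the median of all features was -0.01 and 0.00. The lines differed in the response of 4 members, Socs3, Socs2, Socs5 and Cish, each in the direction of GY118F EpiSCs, against 3.85% of features called that way and 2.14% called the other way. Rises in both lines were called for 12.3% of features, and a rise in GY118F EpiSCs without a call in the control for 5.02%. The arrays of unstimulated and stimulated GY118F EpiSCs did not overlap in any of the 6 members, all higher with G-CSF, against 26.6% of features. In control EpiSCs 2 members did not overlap and were higher (24.9% of features) and 2 did not overlap and were lower (28.7% of features). The plot of values by array shows the 6 genes in the 4 groups.

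**Figure D1:**
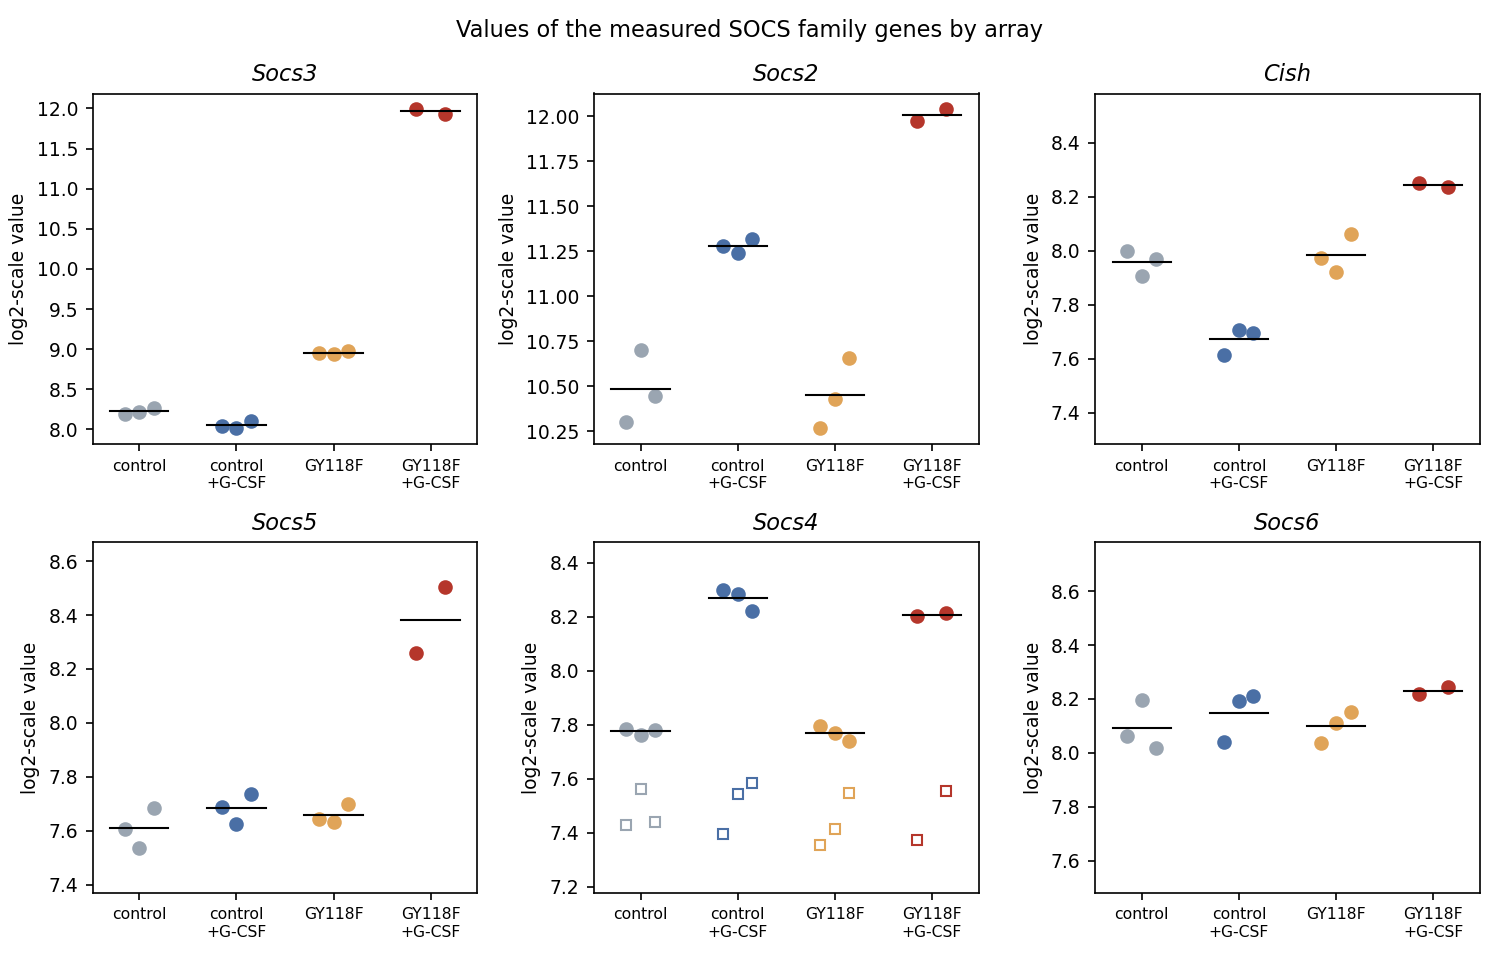
Log2-scale value (vertical axis, a separate range for each gene) of each SOCS family gene on each of the 11 arrays, by group. Filled points are arrays, horizontal lines are group means, and open squares are the second, dimmer Socs4 probe. Socs3 stood at 11.94 and 11.99 in stimulated GY118F EpiSCs, above all other arrays, whereas Socs4 was higher in the stimulated cells of both lines.

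Socs3, the inhibitor that acts on gp130 and its JAKs, had the largest response of the family. In unstimulated GY118F EpiSCs its values were 8.96, 8.94 and 8.98, and after G-CSF they were 11.99 and 11.94. In control EpiSCs they were 8.19, 8.22 and 8.27 without G-CSF and 8.05, 8.01 and 8.11 with it. No array of one group overlapped any other group, so the order of the groups was stimulated control, unstimulated control, unstimulated GY118F and stimulated GY118F.

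The Socs3 rise in GY118F EpiSCs was 3.00 ± 0.05 (SE) on the log2 scale, 8.02-fold, and ranked 2 of 11208 features (limma Benjamini-Hochberg adjusted p = 5.09e-13). In control EpiSCs Socs3 fell by 0.17 ± 0.04 (SE; limma adjusted p = 0.00735), to 0.888 times its unstimulated value. The difference between these changes was 3.18 ± 0.07 (SE; limma adjusted p = 1.96e-11), also rank 2 of 11208. The gap between the lines in their Socs3 change over 3 hours was thus far larger than the spread of the arrays, which was at most 0.05 (SD) in any group.

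Socs3 also differed before any G-CSF was given. Unstimulated GY118F EpiSCs exceeded unstimulated control EpiSCs by 0.73 ± 0.04 (SE), 1.66-fold (limma adjusted p = 7.54e-08), and Socs3 was the single member of the 6 called there, against 16.7% of features called higher and 16.5% called lower. Cell type markers differed there too: of the 8 EpiSC markers Sox2 was higher in GY118F EpiSCs (0.51) and Pou5f1 (-0.74), Fgf5 (-1.41) and Otx2 (-2.09) were lower. Of the 12 measured markers of other cell types, 2 were higher (Dcn 0.38, Zic1 0.46) and 3 lower (Thy1 -0.82, Gata6 -0.44, Pdgfra -0.18). The mean EpiSC marker value was 10.21 to 10.23 on the unstimulated GY118F arrays and 10.59 to 10.68 on the unstimulated control arrays. The part of these shifts in the Socs3 difference was not tested.

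In the other 5 members the unstimulated lines stood within 0.05 of each other, with 95% intervals that together ran from -0.25 to 0.19. With G-CSF, Socs3 was 3.91 ± 0.05 (SE) higher in GY118F than in control EpiSCs, 15-fold (limma adjusted p = 3.90e-14). Of the 6 members, 4 were called higher in this last comparison, against 15.6% of features. These comparisons share arrays with those above and are not independent of them. In total RNA of a culture, fewer cells with a transcript and less of it per cell cannot be told apart.

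Socs2, which restrains growth hormone and STAT5 signalling, rose in both lines and more in GY118F EpiSCs. In unstimulated cells it was at 10.27, 10.43 and 10.66 in GY118F and 10.30, 10.70 and 10.45 in control EpiSCs. After G-CSF its values were 11.97 and 12.04 in GY118F and 11.28, 11.24 and 11.32 in control EpiSCs. The stimulated arrays of each line lay above all unstimulated arrays of both lines, and the stimulated lines did not overlap each other.

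The Socs2 rise was 1.56 ± 0.11 (SE), 2.94-fold, in GY118F EpiSCs (limma adjusted p = 6.50e-07) and 0.79 ± 0.10 (SE), 1.73-fold, in control EpiSCs (limma adjusted p = 4.78e-05). The difference between the rises was 0.76 ± 0.15 (SE; limma adjusted p = 0.00964). It lost its call when values under the 25th percentile of all values were set to that percentile (limma adjusted p = 0.0545), although the difference itself stayed at 0.76. In the order of levels the unstimulated lines did not differ by a call (-0.03, 95% interval -0.25 to 0.19), stimulated control EpiSCs came next, and stimulated GY118F EpiSCs were highest, 0.73 ± 0.11 (SE) above stimulated control EpiSCs (limma adjusted p = 0.000336).

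Cish, the founding member of the family and a known STAT5 target, moved in opposite directions. Its values in GY118F EpiSCs were 7.97, 7.92 and 8.06 before and 8.25 and 8.24 after G-CSF. In control EpiSCs they were 8.0, 7.91 and 7.97 before and 7.62, 7.71 and 7.70 after G-CSF. The unstimulated lines overlapped, the stimulated GY118F arrays lay above them and the stimulated control arrays below them.

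Cish rose by 0.26 ± 0.06 (SE), 1.196-fold, in GY118F EpiSCs (limma adjusted p = 0.00268) and fell by 0.29 ± 0.05 (SE) in control EpiSCs (limma adjusted p = 0.000523). The changes differed by 0.54 ± 0.07 (SE; limma adjusted p = 0.000788), and stimulated GY118F exceeded stimulated control EpiSCs by 0.57 ± 0.06 (SE; limma adjusted p = 7.09e-06). A rise in GY118F with a fall in control EpiSCs was called for Cish and Socs3, 2 of the 6 members, and for 0.491% of all features. The sizes were unequal: the rise of Socs3 ranked 2 and that of Cish 1406 of 11208 features, and their falls in control EpiSCs were 0.17 and 0.29.

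**Figure D2:**
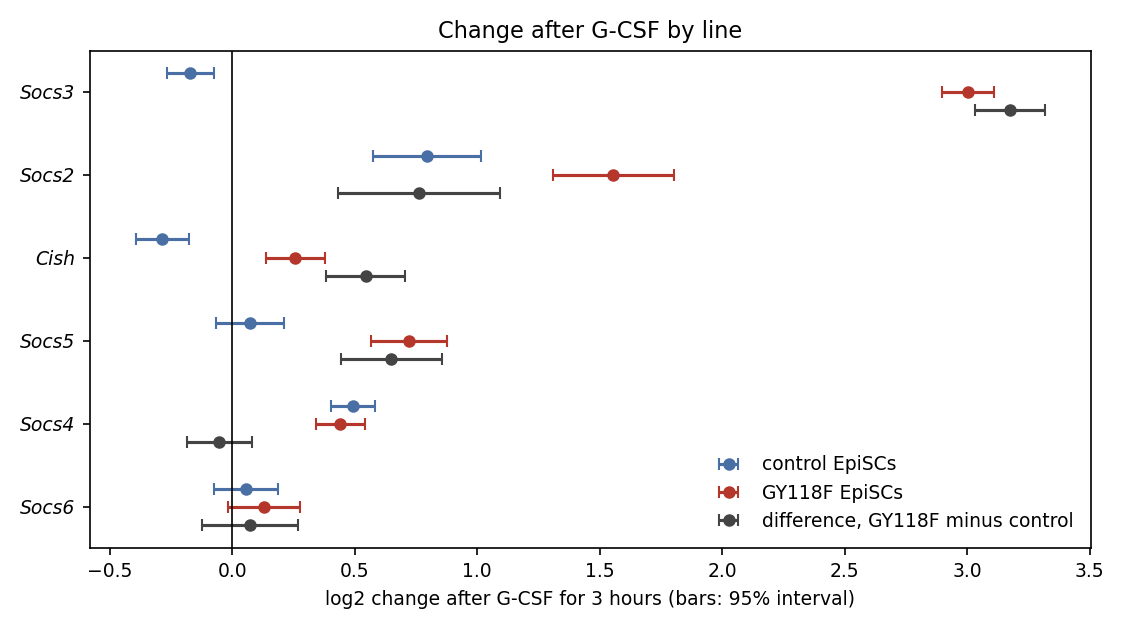
Log2 change after 3 hours of G-CSF (horizontal axis) for each of the 6 genes in control EpiSCs, in GY118F EpiSCs, and the difference between them. Points are limma estimates and bars are 95% intervals. The interval of the difference lies above 0 for Socs3, Socs2, Cish and Socs5 and includes 0 for Socs4 and Socs6.

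Among the members with long amino-terminal extensions, Socs5 rose in GY118F EpiSCs and its response differed between the lines. Socs5, which has been linked to restraint of the EGF receptor and of JAK1, was at 7.64, 7.63 and 7.70 in unstimulated and 8.26 and 8.503 in stimulated GY118F EpiSCs. Control EpiSCs gave 7.61, 7.54 and 7.69 without and 7.69, 7.62 and 7.74 with G-CSF. The stimulated GY118F arrays stood apart from the other 9 arrays, which overlapped each other and lay near the dim end of the scale.

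The Socs5 rise in GY118F EpiSCs was 0.72 ± 0.07 (SE), 1.65-fold (limma adjusted p = 7.25e-06), and the change in control EpiSCs was 0.07 ± 0.06 (SE; 95% interval -0.07 to 0.21; limma adjusted p = 0.404). The difference was 0.65 ± 0.10 (SE; limma adjusted p = 0.00134). The 2 stimulated GY118F arrays differed by more in Socs5 (SD 0.17, n = 2) than in any other member. With either of them left out, the rise was 0.60 or 0.84 and was still called.

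Socs4 rose in both lines, and no difference between the rises was detected. This gene, related to Socs5 by sequence, was at 7.80, 7.77 and 7.74 in unstimulated and 8.20 and 8.21 in stimulated GY118F EpiSCs. In control EpiSCs it was at 7.79, 7.76 and 7.78 without and 8.30, 8.28 and 8.22 with G-CSF. Every stimulated array lay above every unstimulated one.

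Socs4 rose by 0.44 ± 0.05 (SE) in GY118F EpiSCs (limma adjusted p = 1.16e-05) and by 0.49 ± 0.04 (SE) in control EpiSCs (limma adjusted p = 1.59e-06). The difference was -0.05 ± 0.06 (SE) without a call, and its 95% interval of -0.19 to 0.08 excludes a difference as large as those of Socs2, Socs5 or Cish. The second Socs4 probe did not show the rise: in a fit of all 15718 probes it changed by 0.02 ± 0.08 (SE; limma adjusted p = 0.839) in GY118F and 0.03 ± 0.07 (SE; limma adjusted p = 0.771) in control EpiSCs, where 37.1% and 40.3% of probes were called. It was dim, with all 11 values from 7.36 to 7.59, under the 25th percentile of the table (7.62). The Socs4 result therefore rests on 1 of its 2 probes.

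Socs6, linked in mice to insulin and Kit receptor signalling, passed no test. Its values were 8.04, 8.11 and 8.15 in unstimulated and 8.22 and 8.24 in stimulated GY118F EpiSCs. Control EpiSCs gave 8.06, 8.19 and 8.02 without and 8.04, 8.19 and 8.21 with G-CSF. The GY118F groups did not overlap, as in 26.6% of all features in that direction, but the stimulated control arrays spanned nearly the same range as the unstimulated ones.

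The Socs6 change was 0.13 ± 0.07 (SE; limma adjusted p = 0.148) in GY118F and 0.06 ± 0.06 (SE; limma adjusted p = 0.493) in control EpiSCs. Their difference was 0.07, with a 95% interval of -0.12 to 0.27. No 2 neighbours in the order of its 4 group means, from 8.09 in unstimulated control to 8.23 in stimulated GY118F EpiSCs, differed by a call.

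The study's stated criterion asked for a rise over 1.4-fold in GY118F EpiSCs at p under 0.01 with no significant change in the control. The latter was taken here as a control p of at least 0.01. Socs5 was the single member that met it, with adjusted or unadjusted limma p, against 1.07% and 0.946% of all features. Socs3 and Socs2 exceeded the fold threshold but were called in control EpiSCs as well, Socs3 downward. For Socs3 this rests on a small fall with a limma adjusted p of 0.00735, near the cut. Under alternative processing that adjusted p reached 0.0208, so with adjusted p the failure of Socs3 depended on the setting. Cish (1.196-fold), Socs4 (1.36-fold) and Socs6 (1.09-fold) did not reach the fold threshold.

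**Figure D3:**
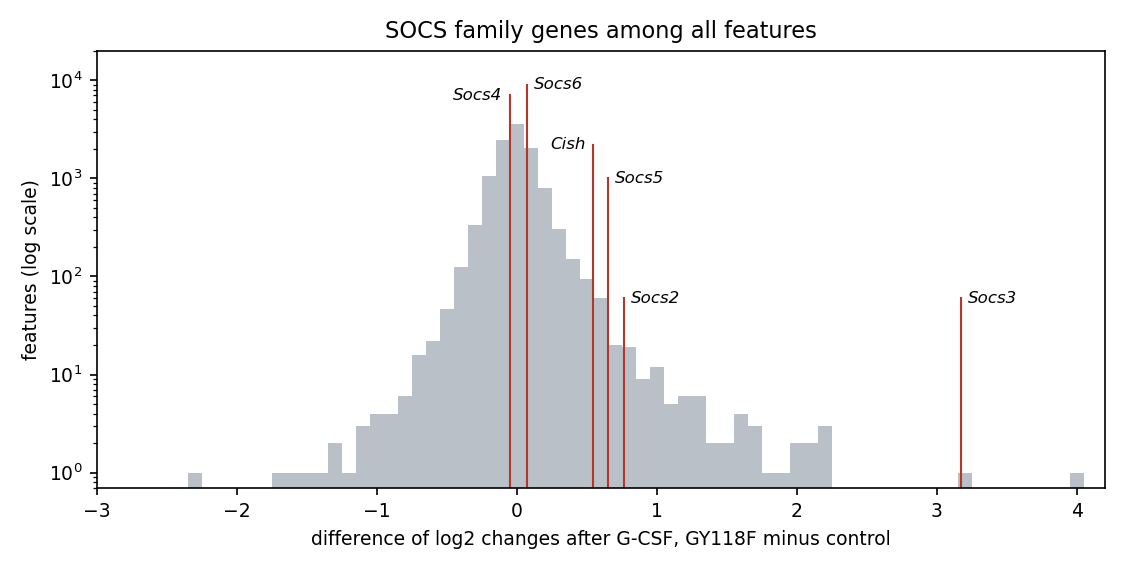
Distribution over 11208 features of the difference of log2 changes after G-CSF, GY118F minus control (horizontal axis, bins of 0.1; vertical axis, number of features on a log scale). Red lines mark the SOCS family genes, and their heights only carry the names. Socs3 at 3.18 is next to the far right end, Socs2, Socs5 and Cish lie in the upper tail, and Socs4 and Socs6 lie in the middle.

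The genes whose values over the 11 arrays were most like each member were taken from 664 or 665 named features with a range of at least 1. The arrays fall into 4 groups, so these Pearson correlations mainly describe group means. For Socs3 they were Ppp1r9b (r = 0.976), Stat3 (0.971), Xbp1 (0.969), Lmna (0.967) and Fam181b (0.966). For Socs5 they were Pik3r1 (0.976), Stat3 (0.971), Fosl2 (0.969), Ahnak (0.969) and Ppp1r9b (0.966), so Stat3 and Ppp1r9b stood in both sets. Between the unstimulated lines (GY118F minus control) the log2 difference was 0.73 for Socs3, 0.38 for Fam181b, 0.11 for Ppp1r9b, 0.07 for Xbp1, 0.02 for Lmna and -0.01 for Stat3.

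The genes most like Socs2 were Hsd17b7 (r = 0.983), Tec (0.971), Dusp5 (0.968), Coq10b (0.962) and Reep3 (0.962). Like Socs2, each had a larger log2 change in GY118F than in control EpiSCs and a change above 0 in both, such as 1.39 and 0.55 for the ERK phosphatase gene Dusp5. Cish was most like the kinase gene Limk2 (r = 0.967), then Pde1b (0.913), Xbp1 (0.880), Upp1 (0.862) and Cldn11 (0.858), all with a change above 0 in GY118F and below 0 in control EpiSCs. Socs4 was most like Rasl11a (0.987), Nifk (0.983), Flvcr1 (0.983), Grwd1 (0.979) and Ino80c (0.979), whose changes were 0.70 to 1.02 in GY118F and 0.88 to 1.08 in control EpiSCs. Ranking by correlation favours genes with the same group pattern, so the shared directions follow largely from how these genes were picked.

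Other parts of the same pathway were read from lists. These were chosen with earlier results of these data known, so the counts are descriptions and not a test. Over all features, 3.85% were called in the difference between the lines in the direction of GY118F EpiSCs and 2.14% in the other. Of 5 measured STAT factors, Stat3 was called in the difference between the lines, at 2.21 ± 0.12 (SE; limma adjusted p = 2.52e-07). Its rise in GY118F EpiSCs was 2.04, against -0.17 without a call in control EpiSCs. At an unadjusted limma p under 0.05 the count was 3, with Stat2 (0.33) and Stat5a (0.23), and Stat2 was called (0.44, limma adjusted p = 0.0266) when stimulated GY118F replicate 3 was left out. In the main fit none of 8 measured receptor and JAK kinase genes (Il6st, Il6ra, Ghr, Epor, Jak1, Jak2, Jak3 and Tyk2) was called in that difference, with 1 at an unadjusted limma p under 0.05, Jak2 at 0.29. Jak2 was called (0.35, limma adjusted p = 0.0417) when stimulated control replicate 1 was left out. Of 13 other early STAT3 targets, 9 were called in the direction of GY118F EpiSCs and 0 in the other (0 also at an unadjusted limma p under 0.05), with a median difference of 0.84 against -0.01 over all features. The 9 were Irf1 at 2.17, Klf5 at 1.69, Junb at 1.61, Tfap2c at 1.05, Cebpb at 0.92, Fos at 0.87, Icam1 at 0.84, Bcl3 at 0.49 and Gadd45g at 0.43, all below the 3.18 of Socs3. Of these, Cebpb did not rise in GY118F EpiSCs (-0.13 without a call), and its control change was -1.06. Bcl3 and the STAT factor Stat5a were dim, with means of 7.39 and 7.43, under the 25th percentile of the table (7.62). Their differences were as low as 0.17 and 0 under alternative processing, so their sizes are uncertain. Cebpd (0.05) and Ccnd1 (0.21) were not called in the difference. Cebpd fell in both lines (-0.54 in GY118F, -0.59 in control EpiSCs) and Ccnd1 rose in both (0.86 and 0.66). In GY118F EpiSCs 10 of the 13 were called higher and 1 lower, against 17.8% and 21.9% of all features. In control EpiSCs 5 were called higher and 4 lower, against 19.5% and 22.6%.

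The partners that SOCS boxes recruit showed no called difference, where 3.85% of all features were called in the direction of GY118F EpiSCs and 2.14% in the other. With shares this small, no call in a list of 8 genes does not set that list apart from all features. None of 8 measured genes of the ubiquitin ligase (the elongins Elob and Eloc, the cullins Cul5 and Cul2, Rbx1, Nedd8, Ube2f and Arih2) was called in the difference between the lines, with 0 at an unadjusted limma p under 0.05. In GY118F EpiSCs 4 of them rose, by 0.19 to 0.26, against 17.8% of all features, but 1 was called when stimulated GY118F replicate 2 was left out. In control EpiSCs 2 rose, Nedd8 (0.20) and Arih2 (0.25), and Elob fell by 0.27, against 19.5% of all features called higher and 22.6% lower. The count of rises there was 1 without unstimulated control replicate 1 or 2 or stimulated control replicate 2. Of 8 measured phosphatase and PIAS genes that also dampen the pathway, 0 were called in the difference, with 1 at an unadjusted limma p under 0.05. Ptpn2, a JAK and STAT phosphatase, rose in both lines, by 0.45 in GY118F and 0.34 in control EpiSCs. It was dim (mean 7.55), and these rises were as low as 0.14 and 0.15 under alternative processing. The phosphatase gene Ptpn6 and the STAT inhibitor gene Pias4 fell in GY118F EpiSCs, by 0.32 and 0.30 (limma adjusted p = 0.00439 and 0.000875). Pias1 fell in control EpiSCs by 0.29 (limma adjusted p = 0.00347).

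Among 13 measured genes of other SOCS-box proteins, 2 were called in the direction of GY118F EpiSCs and 1 in that of the control. Over all features these shares were 3.85% and 2.14%. Spsb1, a SPRY-domain protein that targets inducible nitric oxide synthase for degradation, rose by 1.09 ± 0.07 (SE) in GY118F EpiSCs and stood at 0.12 ± 0.06 (SE) in control EpiSCs without a call, a difference of 0.97 ± 0.09 (SE; limma adjusted p = 3.45e-05). Wsb2, a WD-repeat protein, rose by 1.52 and 0.84, and its difference of 0.67 ± 0.09 (SE; limma adjusted p = 0.000713) resembled that of Socs2 in size. Wsb1 rose by 0.71 and 0.49 without a called difference (limma adjusted p = 0.120). Spsb4 rose in control EpiSCs by 0.71 and stood at -0.13 in GY118F EpiSCs, where leaving out stimulated replicate 2 gave -0.34 with a call (limma adjusted p = 0.00845) and leaving out replicate 3 gave 0.07.

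**Figure D4:**
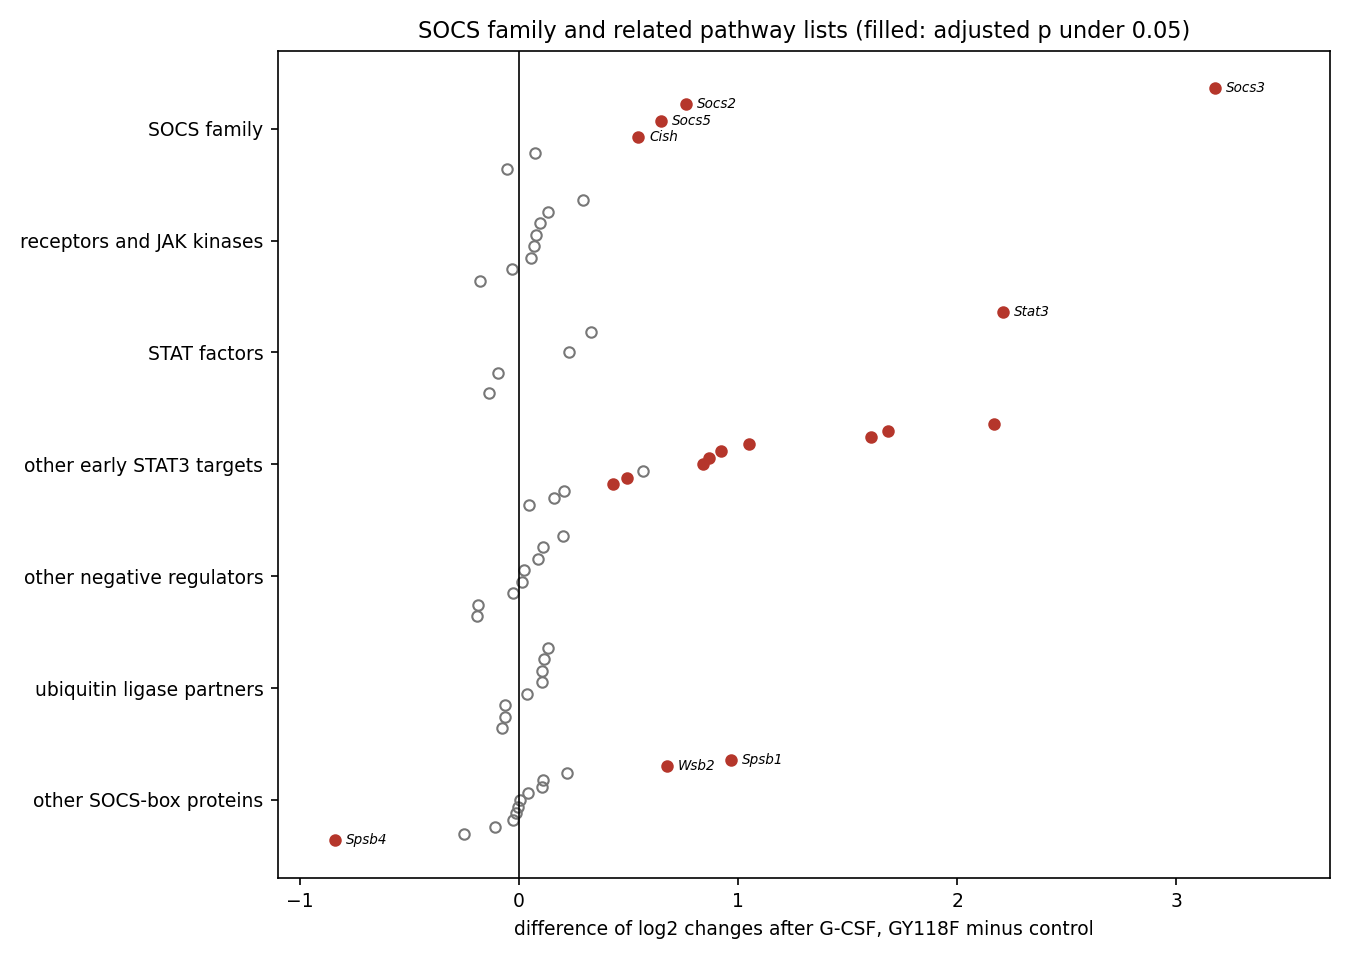
Difference of log2 changes after G-CSF, GY118F minus control (horizontal axis), for the measured SOCS family genes and 6 related gene lists (rows, genes ordered by value within a row). Filled points passed a limma adjusted p of 0.05 and open points did not; names are given for filled points outside the row of early STAT3 targets. Socs3 at 3.18 lies farthest to the right, and no gene of the receptor and JAK, negative regulator or ubiquitin ligase rows is filled.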

How the data were processed

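Biotin-labelled total RNA was hybridized to Illumina arrays, per the labels' protocols. The submitters' processing notes name lumi; its version, the background correction and the transformation (log2 or variance-stabilizing) are not given in the sources used here. The values the authors deposited were treated as log2. Once sorted, they matched across the 11 arrays to within 0.00116, which is the mark of quantile normalization and removes differences in total signal. No detection p-values were used here. The members and lists were chosen with earlier results of these data known.

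Probes were named through GEO's platform annotation: 13711 of 15718 had 1 symbol, 5 had several and 2002 had none, and 0 symbols changed when checked by gene number. Each gene was represented by its probe with the highest mean, which with the 2007 unnamed probes gave 11208 features. No filter on dim features was applied. All 11 arrays in 4 groups were fitted with limma 3.58.1 (lmFit, eBayes) in R 4.3.3, with no block for replicate, and p-values were adjusted by Benjamini-Hochberg over all features at 0.05. Intervals are 95%. The fit was tested on simulated data.

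All measured family members are named. Of the other lists, genes called in the difference between the lines, or called with a change over 0.5 in a line, could be named, with up to 10 a list. Cebpb (past the limit of its list), Jak2, Stat2, Stat5a, Ptpn2, Ptpn6, Pias1, Pias4, Nedd8, Arih2 and Elob, the markers called between the unstimulated lines, and genes that only say what a list holds, were named outside this rule after their values were seen. Likeness was ranked over named, non-provisional symbols, 5 per member called in GY118F EpiSCs.

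Stimulated GY118F arrays carry replicate numbers 2 and 3 from their source names (their titles say 1 and 2). For stimulated control EpiSCs all 3 source names say replicate 1, so numbers were taken from the titles, and that these are separate samples rests on the titles alone. Alternatives were a fit of every probe, dropping the dimmer 50% of features, repeating the quantile normalization, a 25th-percentile floor, trend and robust moderation, array weights, only the groups compared, a replicate block with either numbering, a threshold of 0.01 and leaving out each array.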

Additional observations from a re-analysis of the deposited data

Results flagged for a closer look

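The change after G-CSF differed between the GY118F and control lines by a test of the difference itself (limma, Benjamini-Hochberg adjusted p under 0.05) in 4 SOCS family genes: the change in GY118F minus that in control EpiSCs was 3.18 for Socs3, 0.76 for Socs2, 0.65 for Socs5 and 0.54 for Cish on the log2 scale. In Socs3 and Cish the changes had opposite signs in the lines, in Socs2 both were upward, and in Socs5 the control change was not called. Socs3 was also the member with a difference between the lines before G-CSF, of 0.73. Whether that earlier difference bears on the size of the later change was not tested. Groups of 2 or 3 arrays are too small for a check of single outlying arrays.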

How the results depend on the processing

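For the 6 members in 7 comparisons under 21 alternative settings, 789 of 800 recomputed values kept their direction and their side of the threshold, 2 crossed the threshold and 9 changed sign. Under the floor at the 25th percentile the difference of Socs2 between the lines was 0.76 without a call (limma adjusted p = 0.0545). The floor (7.62) changed no Socs2 value, the lowest of which was 10.27. Its SE, which limma moderates over all features, went from 0.15 to 0.18. The Socs6 difference between stimulated GY118F and unstimulated control EpiSCs was called without unstimulated control replicate 2 (0.19, limma adjusted p = 0.0388). When the dimmer 50% of features were left out, Socs3 and Socs2 alone remained of the family, so members called fell to 2 higher in GY118F EpiSCs, 1 higher and 1 lower in control EpiSCs, and 2 in the difference between the lines. The sign changes were in values without a call. For unstimulated GY118F against control, Cish was -0.0078 with array weights, and with single arrays left out Cish ranged from -0.0122 to 0.0589, Socs2 from -0.14 to 0.0766, Socs4 from -0.0208 to 0.00774 and Socs6 from -0.0278 to 0.0595. Socs5 in unstimulated GY118F against stimulated control EpiSCs ranged from -0.0537 to 0.00267 with single arrays left out.

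With single arrays left out, the rise in GY118F EpiSCs ranged from 2.98 to 3.03 for Socs3, 1.46 to 1.66 for Socs2, 0.60 to 0.84 for Socs5, 0.43 to 0.45 for Socs4 and 0.23 to 0.30 for Cish, and all kept their call. Leaving out a stimulated GY118F array left 1 in that group, whose spread was then taken from the other groups. Among 24 genes of the other pathway lists (the 16 that met the naming rule, with Jak2, Stat2, Stat5a, Ptpn2, Ptpn6, Pias1, Pias4 and Elob; Nedd8, Arih2 and the cell type markers were not recomputed one by one), 10 of 1455 values changed sign, none of them called in the main setting: Cebpd in the difference between the lines (-0.0296 with array weights, and -0.0296 to 0.124 with single arrays left out), Spsb4 in GY118F EpiSCs (-0.339 to 0.0743 with single arrays left out), Ptpn2 in the difference (-0.0101 under the floor), Stat2 in GY118F EpiSCs (-0.165 to 0.0549 with single arrays left out) and Stat5a in GY118F EpiSCs (-0.0060 with array weights, -0.0352 with the block by title, -0.0352 to 0.0353 with single arrays left out). Another 28 crossed the threshold, such as Stat3 in control EpiSCs (-0.20 with array weights), Jak2 in the difference (0.36 with array weights) and Stat2 in the difference (0.33 with trend and robust moderation).

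Deviations of same-numbered arrays from group means correlated at 0.26, 0.25 and -0.29 (control) and -0.04 and 0.30 (GY118F, by title 0.38 and 0.04). These are too few to settle pairing. With the replicate block the difference between the lines was 3.17 for Socs3, 0.67 for Socs2, 0.64 for Socs5 and 0.54 for Cish. With the stimulated GY118F arrays numbered by title it was 3.19, 0.86, 0.67 and 0.58, and no member's call changed under either block. The block could not be fitted for comparisons between the lines. Signal limits the dim members: Cish, Socs4, Socs5 and Socs6 lie in the dimmer 50% of features, and how the authors' transformation treats low signals is not known.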
